A study of Saccharomyces cerevisiae with 72 samples.

Results

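The genes described here are the 8 protein-coding genes of budding yeast, Saccharomyces cerevisiae, whose introns carry a small nucleolar RNA (snoRNA). They were taken as the list EFB1, TEF4, ASC1, IMD4, NOG2, RPS22B, RPL7A and RPL7B, and all of their probes on a splicing-specific oligonucleotide array were used. The 8 genes hold 24 of the 1536 probes, an intron, a junction and an exon probe each, and they are 8 of 982 genes with a named probe. In the RefSeq annotation of assembly R64, 8 of 76 snoRNA genes lie inside a protein-coding gene, and these 8 coding genes are the ones listed. SNR18 lies in EFB1, SNR38 in TEF4, SNR24 in ASC1, SNR54 in IMD4, SNR191 in NOG2, SNR44 in RPS22B, SNR39 in RPL7A and SNR59 in RPL7B.

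Most snoRNAs guide the chemical modification of ribosomal RNA as part of small ribonucleoproteins in the nucleolus. A snoRNA encoded in an intron is usually released after splicing, when the excised lariat is opened by the debranching enzyme and exonucleases trim the ends up to the proteins bound to the snoRNA. In yeast the nuclear exosome with its subunit Rrp6 trims the downstream end of snoRNAs, and the 5′ to 3′ exonucleases Rat1 and Xrn1 act on the upstream end. In such a gene the intron therefore yields a stable RNA beside the messenger RNA made from the exons. Probe positions were not used here, so the label of a probe as intron probe does not say whether it lies in the snoRNA. It also does not say whether the probe lies in the intron with the snoRNA, should a gene have another intron.

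Of the 8 genes, all but IMD4 serve the making or the use of ribosomes. EFB1 and TEF4 encode subunits of the exchange factor for the translation elongation factor that brings aminoacyl-tRNA to the ribosome. ASC1 encodes a scaffold protein of the small ribosomal subunit. IMD4 encodes an IMP dehydrogenase of guanine nucleotide synthesis. NOG2 encodes a GTPase needed to assemble the large ribosomal subunit. RPS22B encodes a protein of the small subunit, and the paralogs RPL7A and RPL7B encode the same protein of the large subunit.

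Total RNA was compared in 2 colours on 72 arrays, which form 36 pairs with the dyes exchanged, in 11 comparisons. In 3 courses cells were sampled 2, 4, 6, 10, 15 and 20 min into 50 mM 3-amino-1,2,4-triazole (3-AT), an inhibitor of histidine synthesis: a gcn2 deletion strain in 3-AT over the same strain untreated, wild type in 3-AT over wild type untreated, and the gcn2 deletion over wild type, both in 3-AT. GCN2 encodes the kinase that senses amino acid starvation. Another course compared wild type in 10% ethanol with untreated wild type at 5, 10, 15, 20, 25 and 30 min. A further course compared prp8-1, a temperature-sensitive allele of the spliceosomal gene PRP8, with wild type at 2 to 20 min at 37 C, and its labels name YPD medium for the mutant and no medium for wild type. In 6 further comparisons, each of 1 pair of arrays, strains deleted for rrp6, rai1, xrn1, ski2, upf1 or rtt103 were set against wild type in minimal medium. The labels name the wild type alike in all 6, so these comparisons may share 1 wild-type RNA. A value that recurs across these strains could then come from that RNA, which was not tested. No course or strain was repeated in a second culture according to the labels. The p-values and standard errors (SE) therefore measure only how much the samples of 1 course scatter around a line fitted over time, and that scatter may be technical. Where values trend over a course, a small SE does not mean a constant level. The arrays of the gcn2 deletion over wild type in 3-AT used treated RNA that the other 2 courses in 3-AT also used.

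All values are the authors' deposited log ratios, taken as log2, with the first-named sample on top and the pair of dye-swapped arrays averaged. The probe of the deleted gene averaged -4.35 for GCN2, -4.01 for RRP6, -3.50 for UPF1 (listed as NAM7), -3.24 for XRN1, -2.50 for SKI2 and -2.37 for RAI1 in the matching deletion strain, and RTT103 had no named probe. Array medians lay between -0.04 and 0.03, and the correlation of the arrays within a pair, over all probes, lay between 0.148 and 0.917. No value of the 24 host probes was missing. The array files give no brightness, so how far a signal stood above background cannot be given, and precision depends on how many arrays there are. These deleted genes check which sample is on top in 6 of the 11 comparisons. For 3-AT over untreated in each strain, ethanol, prp8-1 and rtt103 no deleted gene checks it, and the direction given is the likely one from the labels. Were it the other way in one of these other than prp8-1, each sign and rank order given for that comparison would turn. The case of prp8-1, which also set the probe kinds, is given below. Each value describes a bulk culture, so fewer cells holding an RNA and less of it per cell cannot be told apart.

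The files do not name a probe's kind. It was read from the fixed spacing of the 3 spots of a gene on the slide, which falls into 4 classes over 229 genes with an intron, and the direction of each class was set by the rise of intron probes in prp8-1. Of these 229 genes, 218 followed their class. NOG2 did not, so for this gene the probes called intron and exon could be the other way round. Its junction probe, which spans joined exons, followed the probe called exon in the 3-AT courses, with a correlation of 0.971 over 18 pairs, against -0.616 with the probe called intron. Over the 18 other pairs the correlations were 0.901 and -0.368, but without prp8-1, over 12 pairs, they were 0.569 and 0.542, so there the junction probe followed neither more clearly. Pairs share slides and courses. For EFB1 the junction probe ran against the exon probe over the 18 other pairs (-0.836) and its correlation with it in the 3-AT courses was -0.001. For RPL7B the junction and exon probes correlated by 0.087 over the 18 other pairs and by 0.942 in the 3-AT courses. Indices of EFB1 and RPL7B are therefore also given, where it matters, with the junction and exon probes exchanged, an alternative chosen after seeing the data. This exchange was not made for RPL7A. Its junction and exon probes correlated by 0.502 in the 3-AT courses and by 0.517 over the 18 other pairs. Without prp8-1, over 12 pairs, the second correlation was 0.198. The intron minus exon index used below is the difference of the 2 log2 ratios. A positive index means that the intron signal was higher relative to the exon signal than in the sample below the line. Were the prp8-1 comparison the other way round, the probes called intron and exon would be exchanged in all 229 genes. The prp8-1 indices would then keep their sign, and the indices of the other comparisons would turn.

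**Figure D1:**
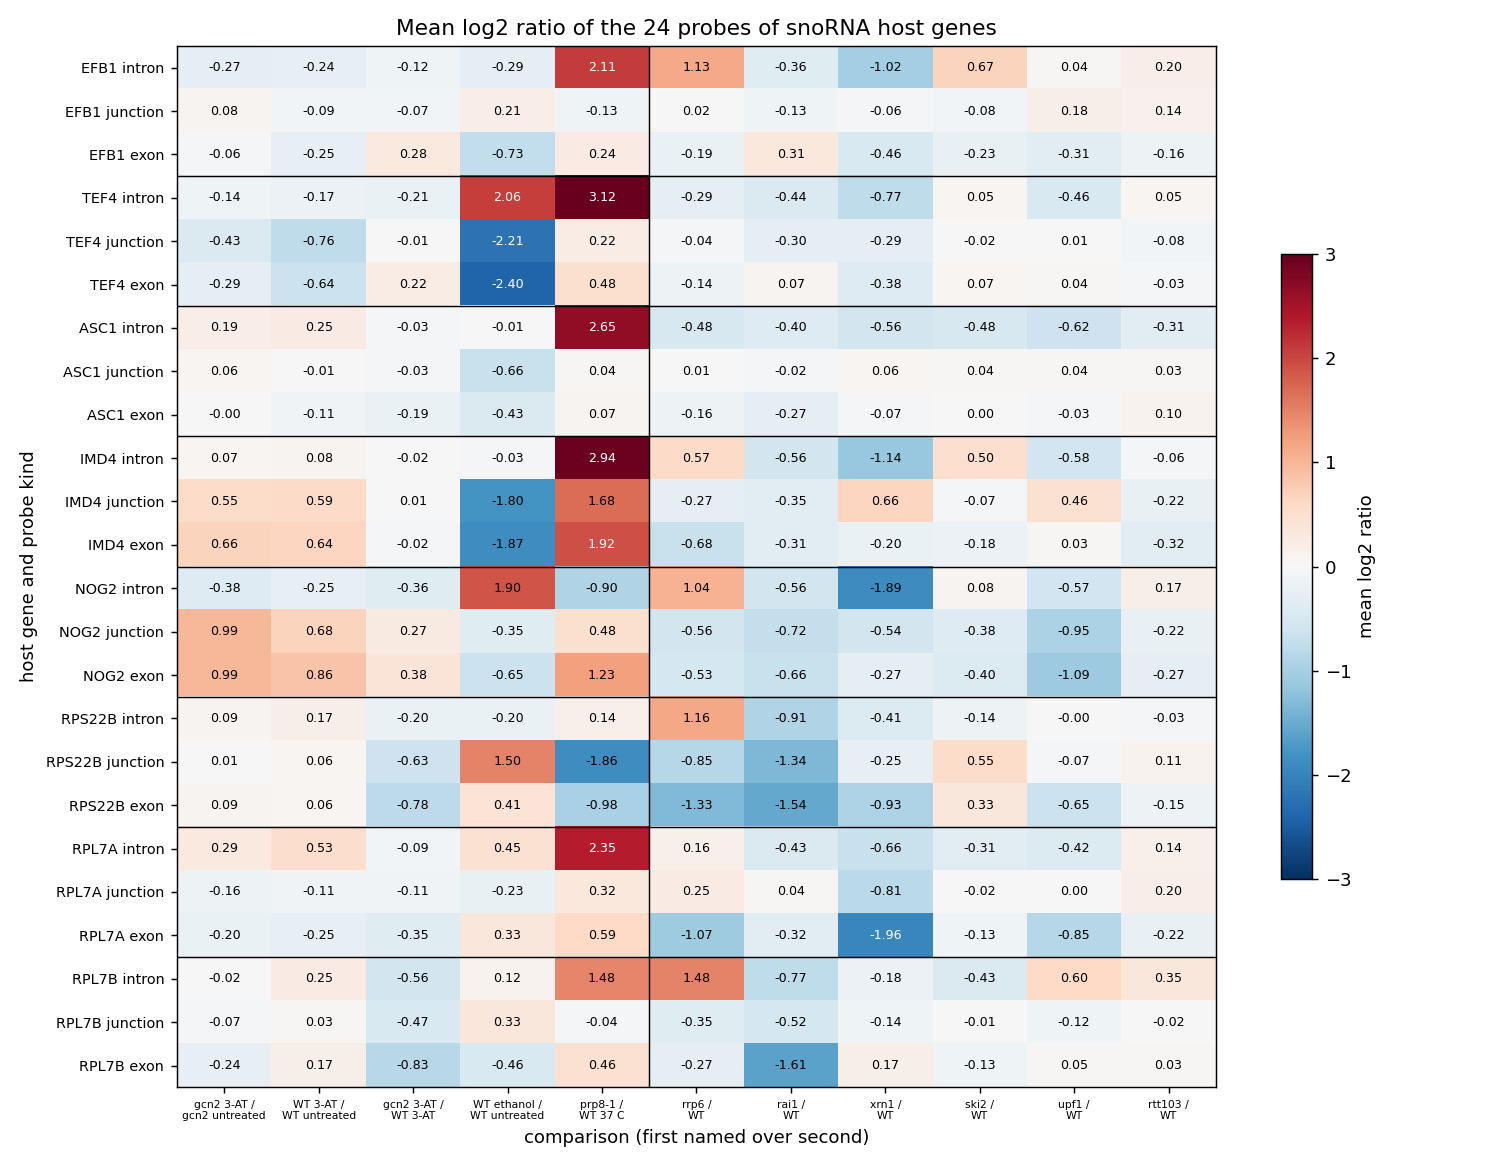
Mean log2 ratio (colour and printed number) of the intron, junction and exon probe of each of the 8 host genes, down the page, in the 11 comparisons, across; courses are means over 6 time points and deletion strains means of 2 arrays. Values beyond 2 in size lie in the prp8-1 and ethanol columns, and the rrp6 column has intron probes above 0 beside exon probes below 0 in 6 of the 8 genes.

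In prp8-1 at 37 C the intron signal of most hosts rose far above that of wild type. Because this comparison set the probe kinds, its values are a description. An index of 0.5 or more in size, with 1 sign throughout the 6 time points, was found in 195 of 229 genes (85.2%) and in all 8 hosts. It was positive in 7 hosts and negative in NOG2, which was at -2.12 ± 0.24 (SD, n = 6 time points) and the lowest of all 229 indices. TEF4 had the highest index of the hosts, 2.65 ± 0.88, with intron values of 2.79, 3.63, 3.70, 3.15, 2.39 and 3.08 from 2 to 20 min. Its exon probe stood at 0.09, 0.07, 0.09, 0.39, 0.92 and 1.30 at the same times. The intron signal was thus high from the earliest sample on, while the exon signal moved away from 0 later in the course.

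ASC1 resembled TEF4, with an index of 2.58 ± 0.35 (SD, n = 6) and intron values between 2.21 and 3.35. EFB1 averaged 1.87 ± 0.50 and RPL7A 1.76 ± 0.49. IMD4, RPL7B and RPS22B had the smallest positive indices, at 1.01 ± 0.29, 1.01 ± 0.62 and 1.12 ± 0.32. For RPL7B the index was 0.02 at 15 min, where its intron probe (1.08) and exon probe (1.06) stood level.

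IMD4 and RPS22B differed from the other hosts with a positive index in how their index arose. In IMD4 the exon probe was itself high, at 1.52, 1.85, 1.95, 2.46, 2.00 and 1.75 from 2 to 20 min, under intron values of 2.77 to 3.18. Exon probes were also higher by the size rule in RPL7A (0.59) and NOG2 (1.225), where 17 of 229 exon probes were higher and 58 lower. The probe called intron of NOG2 averaged -0.90, and with its probes exchanged its intron value would be 1.225. In RPS22B the intron probe stayed between -0.09 and 0.35 while the exon probe lay between -1.20 and -0.81 and the junction probe between -2.20 and -1.34. RPS22B was the only one of the 8 hosts whose junction probe averaged below -0.5, at -1.86. The 8 hosts had a median intron value of 2.23, against 1.91 over 92 other ribosomal protein genes and 1.10 over all 229 genes. Their median index was 1.44, against 1.63 over those ribosomal protein genes and 1.28 over all 229.

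**Figure D2:**
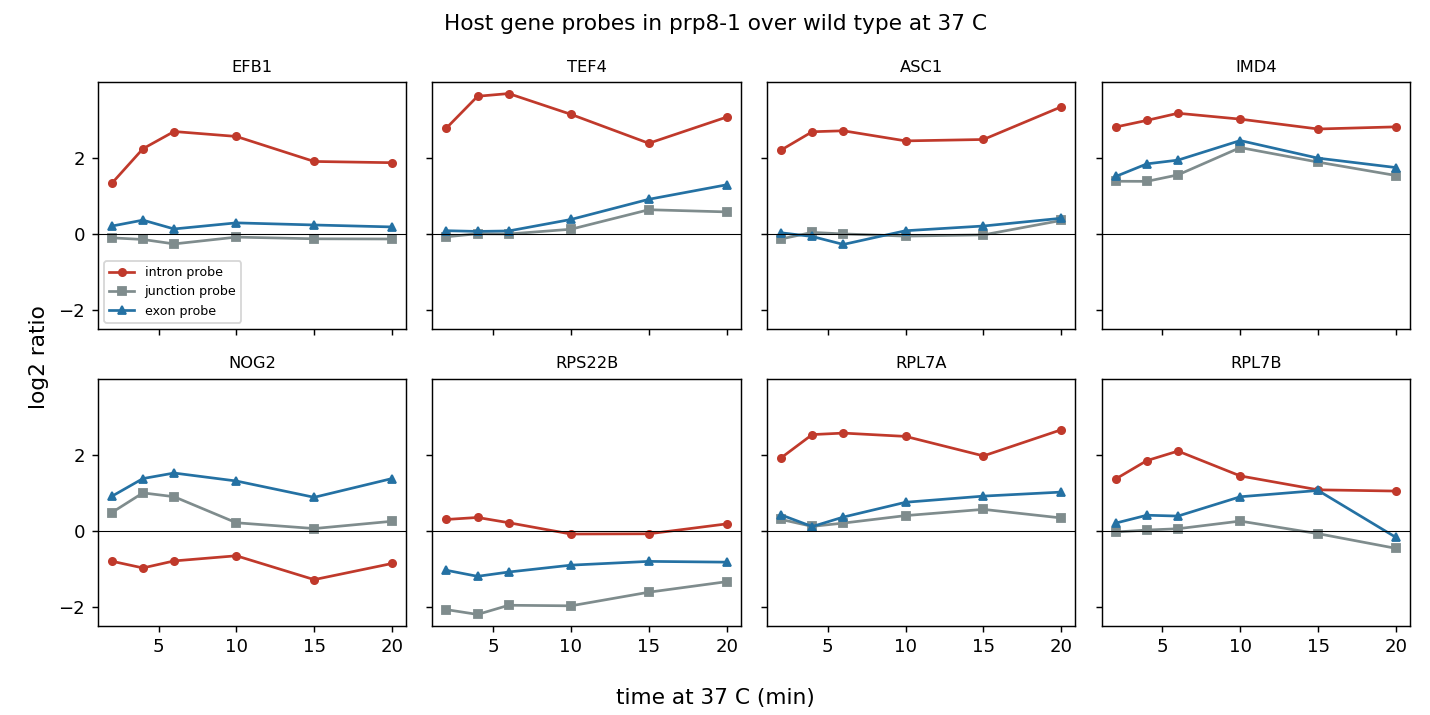
Log2 ratio of prp8-1 over wild type at 37 C (vertical axis) against time in min for the intron, junction and exon probe of each host gene, 1 panel a gene, each point the mean of 2 dye-swapped arrays. Intron values of TEF4, ASC1 and IMD4 lie above 2 at all times, RPS22B shows a fallen junction and exon signal under a level intron signal, and the intron probe of NOG2 lies below 0.

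Deletion of rrp6, the gene of the nuclear exosome's exonuclease Rrp6, came with higher intron signal in most hosts and lower exon signal in several. With 1 pair of arrays a strain there is no replicate and no test, and a value is counted where it is 0.5 or more in size with 1 sign on both arrays. Intron probes of 5 of the 8 hosts were higher by this rule (EFB1, IMD4, NOG2, RPS22B and RPL7B), where 20 of 229 intron probes (8.73%) were past it in either direction and 15 of them were higher. The hosts thus made up 33.3% of the higher intron probes, and 62.5% of the hosts were among them. No host intron probe was lower by the rule.

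RPL7B had the highest intron value, with 1.51 and 1.46 on the arrays with rrp6 RNA in Cy5 and in Cy3. RPS22B read 1.08 and 1.25, and NOG2 0.99 and 1.09. EFB1 read 1.44 and 0.82 and IMD4 0.49 and 0.64. All 5 were above 0 with either dye, and the mean of RPL7B, 1.48, ranked 4 from the highest among the 229 genes.

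The remaining 3 hosts did not follow. ASC1 had intron values of -0.70 and -0.27, TEF4 -0.08 and -0.50, and RPL7A -0.11 and 0.42, so the arrays of RPL7A differed in sign. TEF4 and ASC1 had the intron signal nearest the low end of the hosts, at ranks 205 and 224 from the highest of 229.

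Exon probes were lower in 4 hosts, with 32 of 229 exon probes (14.0%) past the rule, 24 of them lower. RPS22B averaged -1.33, with -1.36 and -1.30 on its arrays, and was the lowest of all 229 exon probes. RPL7A averaged -1.07, IMD4 -0.68 and NOG2 -0.53. RPL7B, the paralog of RPL7A, stood at -0.27, which missed the size.

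As a difference, the index was higher by the rule in 6 of the 8 hosts, every one but TEF4 and ASC1. Past the rule were 38 of 229 indices (16.6%), 27 of them higher, so the hosts made up 22.2% of the higher indices and 75.0% of the hosts were among them. RPS22B had the highest index of all 229 genes, with 2.45 and 2.54 on its arrays. RPL7B ranked 3 (1.75), NOG2 5 (1.57), EFB1 9 (1.32), IMD4 10 (1.25) and RPL7A 11 (1.23). The RPL7A index rests on its exon probe alone (-1.07), since its intron probe (0.16) and junction probe (0.25) lay near each other. If the NOG2 probes are exchanged, its index is -1.57 and its intron value -0.53 instead, which leaves 4 hosts with a higher intron probe and 3 with a lower exon probe. The median index was 1.28 over the 8 hosts, -0.10 over 92 other ribosomal protein genes and 0.08 over 129 other genes with an intron.

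**Figure D3:**
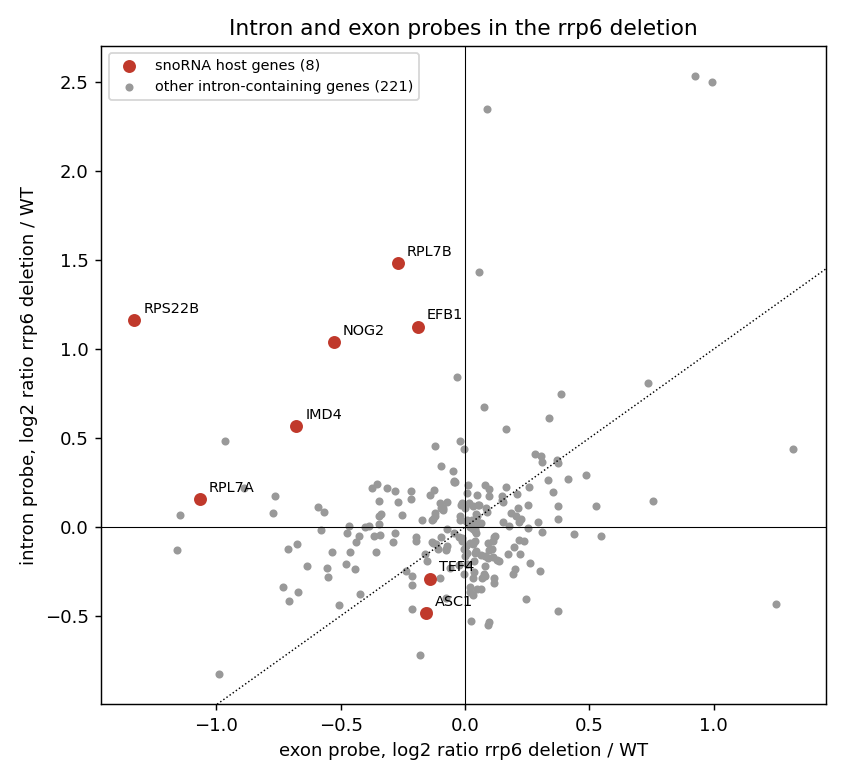
Intron probe (vertical axis) against exon probe (horizontal axis) of 229 genes, log2 ratio of the rrp6 deletion over wild type, each the mean of 2 dye-swapped arrays; red points are the 8 hosts, grey points the other 221 genes, and the dotted line marks equal change. RPS22B, RPL7B, NOG2, EFB1, IMD4 and RPL7A lie above the line on its left, and TEF4 and ASC1 lie within the grey points.

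Without Xrn1, the main cytoplasmic 5′ to 3′ exonuclease, intron signal of the hosts was lower. The median intron value was -0.72 over the 8 hosts. It was also below 0 over 92 other ribosomal protein genes (-0.36), and it was 0.1 over 129 other genes with an intron. By the same rule 6 of the 8 host intron probes were lower and none higher, where 70 of 229 intron probes (30.6%) were past the rule, 46 of them lower. NOG2 was the lowest of all 229 intron probes, at -1.77 with xrn1 RNA in Cy5 and -2.01 in Cy3. IMD4 read -1.04 and -1.24, EFB1 -0.48 and -1.57, and TEF4 -0.44 and -1.10. For EFB1 and TEF4 the size depended on the dye, and for IMD4 and NOG2 it differed little between dyes. RPL7A averaged -0.66 and ASC1 -0.56. With its probes exchanged the intron value of NOG2 would be -0.27, which misses the size and leaves 5 lower hosts.

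Exon signal in the xrn1 deletion was lower in RPL7A and RPS22B and in no other host by the rule, where 84 of 229 exon probes (36.7%) were past it. The RPL7A exon probe read -2.00 and -1.92 and was the lowest of all 229, while the exon probe of RPL7B read 0.16 and 0.18. RPS22B averaged -0.93. The index was therefore higher in RPL7A (1.30) and RPS22B (0.52) and lower in NOG2 (-1.62, or 1.62 with its probes exchanged) and IMD4 (-0.95), out of 97 of 229 indices (42.4%) past the rule. With junction and exon probes exchanged EFB1 (-0.97) would be lower as well. The host counts in the index lie near that background share. In RPL7A the junction probe averaged -0.81, near its intron probe (-0.66) and above its exon probe.

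Loss of Rai1, the partner of the nuclear 5′ to 3′ exonuclease Rat1, came with lower signal on both kinds of probe in several hosts. Exon probes were lower in RPL7B (-1.71 and -1.50 with rai1 RNA in Cy5 and Cy3), RPS22B (-1.59 and -1.48) and NOG2 (-0.66 on either array), where 21 of 229 exon probes (9.17%) were past the rule. Intron probes were lower in RPS22B (-0.91), RPL7B (-0.77), NOG2 (-0.56) and IMD4 (-0.56), where 31 of 229 (13.5%) were past it. None of the 8 hosts was higher by the rule on either kind. The median intron value was -0.50 over the 8 hosts and -0.35 over 92 other ribosomal protein genes. Over 129 other genes with an intron it was 0.04. The index was higher in RPL7B (0.84) and RPS22B (0.62), in which the exon fell further than the intron, and lower in EFB1 (-0.67) and TEF4 (-0.51), with 47 of 229 indices (20.5%) past the rule. With junction and exon probes exchanged neither EFB1 (-0.22) nor RPL7B (-0.25) would be past it.

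In the strain without Upf1, the helicase of nonsense-mediated decay, the exon probes of NOG2 (-1.09 and -1.08 with upf1 RNA in Cy5 and Cy3), RPL7A (-0.86 and -0.84) and RPS22B (-0.66 and -0.64) were lower, where 39 of 229 exon probes (17.0%) were past the rule. Intron probes were higher in RPL7B (0.60) and lower in ASC1 (-0.62), IMD4 (-0.58) and NOG2 (-0.57), where 43 of 229 (18.8%) were past it. The index was higher in RPS22B (0.65), RPL7B (0.56) and NOG2 (0.52) and lower in IMD4 (-0.62), ASC1 (-0.59) and TEF4 (-0.50), with 49 of 229 (21.4%) past the rule. With its probes exchanged, NOG2 would stand at -0.52. The junction probe of RPL7A stood at 0.003, unlike its exon probe. EFB1 had no settled value here, since its index was 1.44 on the array with upf1 RNA in Cy5 and -0.73 on the other.

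Loss of Ski2, the helicase of the cytoplasmic exosome pathway, came with a higher intron signal in EFB1 and IMD4 alone among the hosts. EFB1 read 1.17 and 0.17 with ski2 RNA in Cy5 and Cy3, and IMD4 read 0.52 and 0.49. These were both of the 2 intron probes that were higher in all 229 genes, of 14 (6.11%) past the rule. Their indices, 0.90 and 0.68, were 2 of 5 higher ones, of 26 (11.4%) past the rule. No host exon probe was past it, where 5 of 229 (2.18%) were. The intron value of EFB1 depended on the dye, and the IMD4 mean, 0.505, lay just above the size of 0.5. The 2 ski2 arrays correlated by 0.474, the lowest of the 6 deletion strains. In the strain without Rtt103, a factor of transcription termination, no host index, intron probe or exon probe was past the rule, where 13 (5.68%), 6 (2.62%) and 8 (3.49%) of 229 were.

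Ethanol gave the widest separation of intron and exon signal in TEF4. Its intron probe rose and its exon and junction probes fell at every time point. The intron values were 1.62, 2.34, 2.00, 2.62, 2.00 and 1.80 from 5 to 30 min, and the exon values were -2.71, -2.11, -2.74, -2.18, -2.30 and -2.35. Both were at these levels in the first sample and showed no steady trend after it. Tested with limma across the 6 pairs, the index averaged 4.46 ± 0.08 (SE; adjusted p = 1.01e-15) and was the highest of 229 genes. Its single-dye means were 4.73 with ethanol RNA in Cy5 and 4.20 in Cy3.

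NOG2 and IMD4 also had large indices, built in different ways. The intron probe of NOG2 read 1.89, 2.24, 2.24, 1.33, 2.15 and 1.54 from 5 to 30 min, over exon values from -0.82 to -0.46, and its index of 2.54 ± 0.09 (SE; limma adjusted p = 3.59e-12) ranked 2 from the highest. With its probes exchanged this index is -2.54. In IMD4 the exon probe fell, at -1.82, -1.53, -2.00, -1.89, -1.98 and -2.01, and the intron probe stayed between -0.12 and 0.07. Its index was 1.84 ± 0.06 (SE; limma adjusted p = 2.91e-12) and ranked 7, and its junction probe fell with the exon (-1.80 ± 0.13). In both genes the indices at all 6 times and with either dye had the same sign.

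By limma's adjusted p under 0.05 the index was higher in 6 of the 8 hosts and lower in 1, where 179 of 229 indices (78.2%) passed, so the count lies near the background. ASC1 averaged 0.43 ± 0.07 (SE), EFB1 0.44 ± 0.08 and RPL7B 0.58 ± 0.07. All 6 pair values of these 3 genes were above 0 with the dyes averaged, but the dyes differed. RPL7B averaged 1.43 with ethanol RNA in Cy5 and -0.28 in Cy3, EFB1 0.92 and -0.03, and ASC1 0.08 and 0.77, so that RPL7B passed in opposite directions. With junction and exon probes exchanged EFB1 would be at -0.50 ± 0.08 (SE; limma adjusted p = 4.26e-05) and RPL7B at -0.22 ± 0.06 (adjusted p = 0.0044), so the direction of both depends on which probe is the exon probe. RPS22B was lower, at -0.61 ± 0.08 (adjusted p = 4.78e-06) with -0.61 and -0.62 by dye, and RPL7A did not pass (0.12 ± 0.08, adjusted p = 0.198), although it did without 25 min (0.19) and with Cy5 alone (0.29).

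Of the 24 host probes, 22 passed in ethanol, 9 higher and 13 lower, against 81.6% of all probes. Exon probes fell in 6 hosts and rose in RPS22B (0.41) and RPL7A (0.33). The host median was -0.55 against 0.05 over all 229 genes. The falls in NOG2, EFB1 and RPL7B depend on which probe is the exon probe. With junction and exon probes exchanged EFB1 (0.21) and RPL7B (0.33) would be higher. NOG2 would be higher with its intron and exon probes exchanged. The falls in TEF4, ASC1 and IMD4 do not depend on these exchanges. The host median does, and it was not computed with the probes exchanged. The RPS22B junction probe rose at all times, from 1.37 to 1.64, but it averaged 0.61 with ethanol RNA in Cy5 and 2.38 in Cy3. The junction minus exon index passed in 7 hosts, 5 higher and 2 lower, where 178 of 229 (77.7%) did. EFB1 had 0.94 ± 0.05 (SE), RPL7B 0.79 ± 0.08 and RPL7A -0.56 ± 0.07, each with 1 sign by dye. The signs of EFB1 and RPL7B turn if their junction and exon probes are exchanged.

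**Figure D4:**
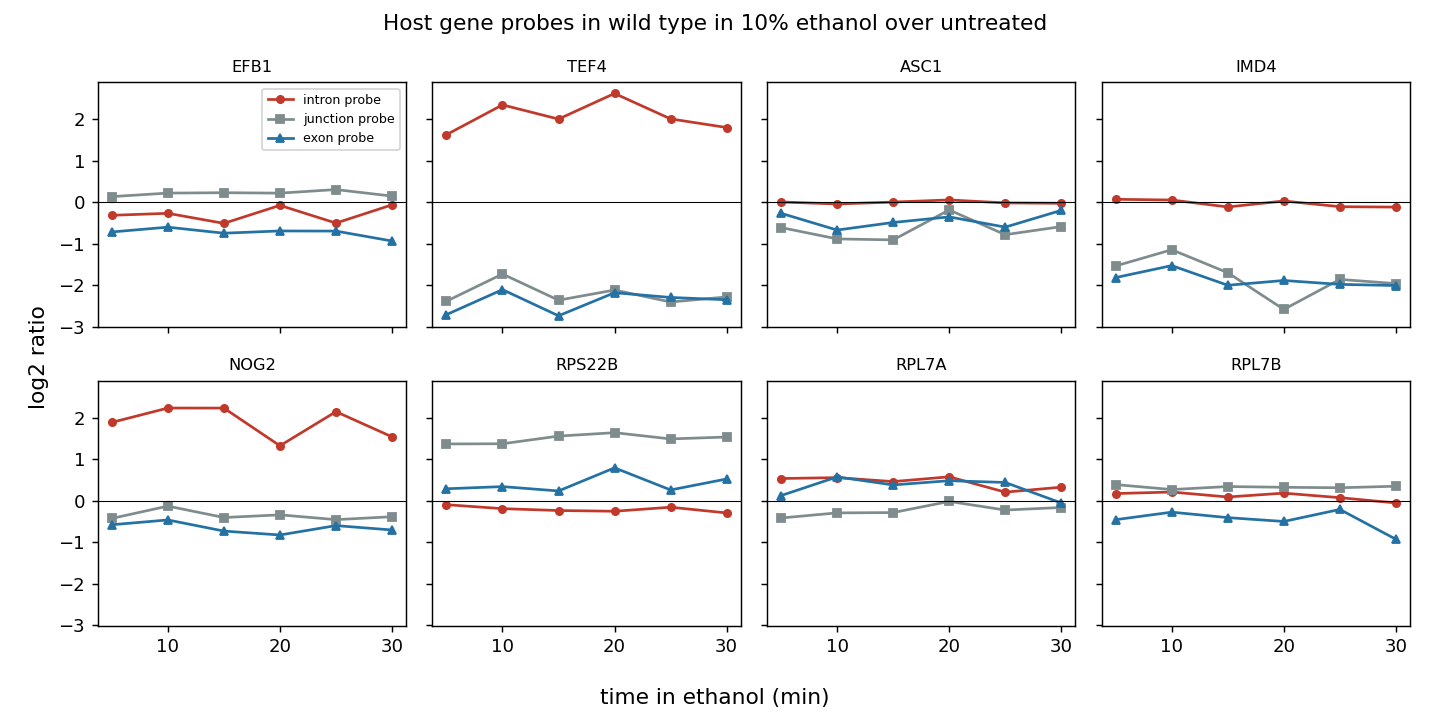
Log2 ratio of wild type in 10% ethanol over untreated (vertical axis) against time in min for the intron, junction and exon probe of each host gene, 1 panel a gene, each point the mean of 2 dye-swapped arrays. TEF4 has intron values above 1.6 over exon and junction values below -1.7, NOG2 has intron values above 1.3, and IMD4 has exon values below -1.5 under an intron probe near 0.

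In 3-AT the exon signal of IMD4 and the probe called exon of NOG2 rose in both strains, and the exon signal of TEF4 fell. In the gcn2 deletion the NOG2 exon probe read 0.07, 0.53, 0.67, 0.98, 1.66 and 2.05 from 2 to 20 min, and in wild type it read 0.32, 0.66, 0.97, 1.24, 1.10 and 0.89. It climbed to the last sample in the gcn2 deletion and was highest at 10 min in wild type. The means were 0.99 ± 0.04 in the gcn2 deletion (SE; limma adjusted p = 3.82e-07) and 0.86 ± 0.10 in wild type (adjusted p = 0.000209). If the NOG2 probes are exchanged, its exon value is -0.38 in the gcn2 deletion and -0.25 in wild type, lower in both.

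The IMD4 exon probe read 0.04, 0.61, 0.55, 0.71, 0.88 and 1.18 in the gcn2 deletion, and 0.13, 0.51, 0.79, 0.93, 0.82 and 0.67 in wild type. Its means were 0.66 ± 0.06 and 0.64 ± 0.09 (SE) in the 2 strains, and its intron probe did not pass in either, at 0.07 and 0.08. The TEF4 exon probe read -0.28, 0.16, -0.19, -0.27, -0.56 and -0.62 in the gcn2 deletion, and 0.07, -0.30, -0.54, -0.62, -1.20 and -1.28 in wild type. TEF4 averaged -0.29 ± 0.06 in the gcn2 deletion and -0.64 ± 0.05 in wild type.

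The index passed limma's adjusted p under 0.05 in 7 of the 8 hosts in the gcn2 deletion, 4 higher and 3 lower, where 144 of 229 indices (62.9%) did. It passed in 5 hosts in wild type, 3 higher and 2 lower, where 158 of 229 (69.0%) did. NOG2 had the lowest index of all 229 genes in either strain, -1.38 ± 0.06 in the gcn2 deletion and -1.11 ± 0.10 in wild type, and these become 1.38 and 1.11 if its probes are exchanged. IMD4 ranked next, at -0.59 ± 0.05 and -0.56 ± 0.08. In IMD4 a raised exon signal stood beside an intron signal that did not pass.

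RPL7A was the host with the highest index in 3-AT, at 0.50 ± 0.08 in the gcn2 deletion (SE; limma adjusted p = 0.00016) and 0.78 ± 0.06 in wild type (adjusted p = 1.08e-06). Its intron probe rose, with values between 0.05 and 0.59 in the gcn2 deletion and between 0.42 and 0.64 in wild type, and its exon probe fell. TEF4 had 0.16 ± 0.06 in the gcn2 deletion and 0.47 ± 0.06 in wild type, and ASC1 had 0.19 ± 0.06 and 0.36 ± 0.06. In the gcn2 deletion TEF4 no longer passed without 10, 15 or 20 min (adjusted p = 0.0828, 0.222 and 0.233) or without a slope over time, and ASC1 no longer passed without 15 min (0.0737) or without a slope. ASC1 also failed with Cy5 alone in wild type (0.13, adjusted p = 0.23) and in the gcn2 deletion (0.03, adjusted p = 0.742).

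RPL7B passed in the gcn2 deletion (0.22 ± 0.06) and not in wild type (0.08 ± 0.05), and EFB1 was lower in the gcn2 deletion (-0.21 ± 0.04) and did not pass in wild type (0.01 ± 0.05). With junction and exon probes exchanged EFB1 would be lower in both (-0.35 ± 0.05 in the gcn2 deletion and -0.16 ± 0.06 in wild type), and RPL7B would pass in wild type (0.22 ± 0.05) and not in the gcn2 deletion (0.05 ± 0.05). RPS22B passed in neither, at 0.00 ± 0.06 in the gcn2 deletion and 0.10 ± 0.05 in wild type, although in wild type it passed without 15 min (0.15) or 20 min (0.175). Its wild-type index, like that of RPL7B, was above 0 at the first 4 times and below 0 at 15 and 20 min.

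**Figure D5:**
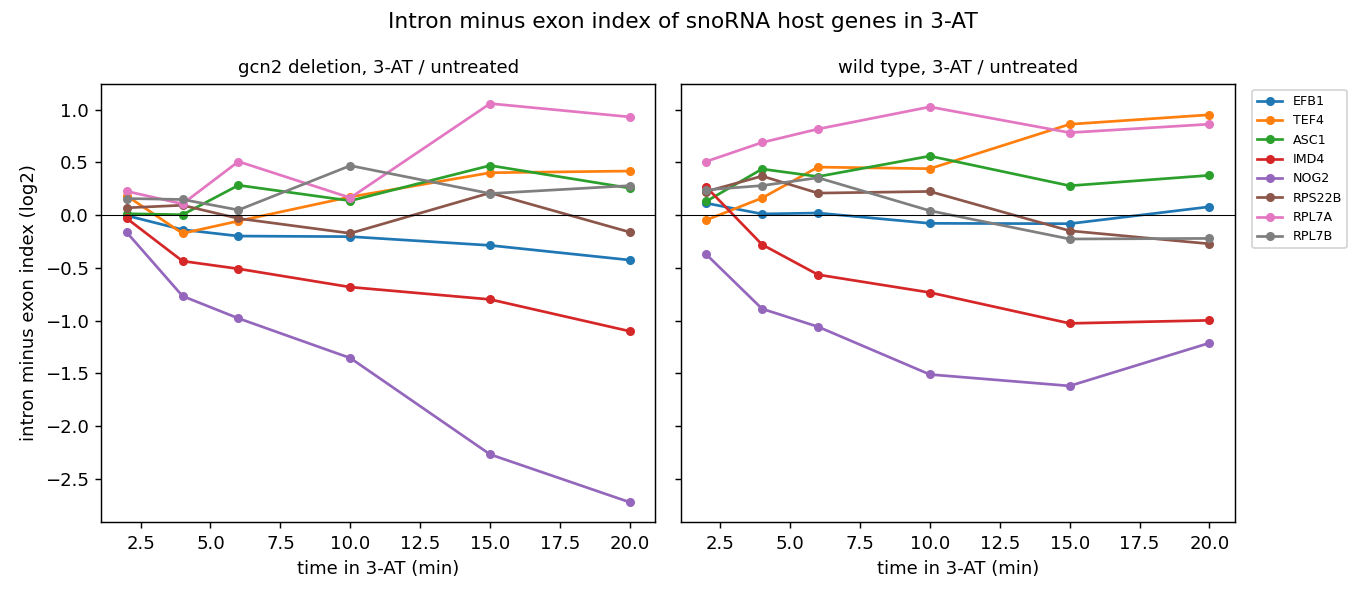
Intron minus exon index in log2 (vertical axis) against time in 3-AT in min for the 8 host genes, with the gcn2 deletion on the left and wild type on the right, each point the mean of 2 dye-swapped arrays. NOG2 and IMD4 run downwards in both panels, NOG2 to -2.72 at 20 min in the gcn2 deletion, and RPL7A stays above 0 throughout.

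Over single probes, 14 of 24 host probes passed in the gcn2 deletion, 6 higher and 8 lower, against 56.3% of all probes, and 18 passed in wild type, 9 each way, against 63.1%. Without a slope term 9 host probes passed in the gcn2 deletion. The junction minus exon index passed in 1 host in the gcn2 deletion, RPL7B (0.17 ± 0.04), where 97 of 229 (42.4%) did. In wild type it passed in 6 hosts, 3 higher and 3 lower, where 110 of 229 (48.0%) did, and in 3 hosts without 15 min or without 20 min. The gcn2 deletion count was 2 without 2 min or without 4 min. The largest of these in size was NOG2 in wild type, at -0.19.

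The difference between the 2 responses to 3-AT was tested directly. The index of TEF4 was lower in the gcn2 deletion than in wild type by -0.31 ± 0.08 (SE; limma adjusted p = 0.0272) and that of EFB1 by -0.22 ± 0.06 (adjusted p = 0.0409), where 30 of 229 indices (13.1%) passed. With junction and exon probes exchanged EFB1 did not pass (-0.20 ± 0.08, adjusted p = 0.118). The other 6 hosts did not pass, with adjusted p from 0.0843 for RPL7A (-0.28 ± 0.11) to 0.82 for IMD4 (-0.04 ± 0.10). With the shared time points as a replicate block no host passed (2 of 8 at an unadjusted p under 0.05), without a slope none did (1 of 8 unadjusted), and with either dye alone none did (3 of 8 unadjusted each). Leaving out 4, 6, 10, 15 or 20 min also left none (3 to 5 of 8 unadjusted), while 3 hosts passed without 2 min.

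On the arrays that set the gcn2 deletion directly against wild type in 3-AT, RPS22B and RPL7B had lower signal in the gcn2 deletion. The RPS22B exon probe read -0.91, -0.87, -0.74, -0.85, -0.71 and -0.63 from 2 to 20 min and averaged -0.78 ± 0.03 (SE; limma adjusted p = 1.39e-06). The RPL7B exon probe read -0.59, -0.58, -0.65, -0.98, -1.14 and -1.05 and averaged -0.83 ± 0.04 (adjusted p = 5.51e-06). Both were already below 0 at 2 min, and they ranked 1526 and 1527 from the highest of the 1536 probes. In 3-AT over untreated, the RPS22B exon probe averaged 0.09 ± 0.04 in the gcn2 deletion and 0.06 ± 0.03 in wild type and passed in neither, and the RPL7B exon probe averaged -0.24 ± 0.05 in the gcn2 deletion and 0.17 ± 0.03 in wild type. The courses share their treated RNA, and the difference between strains was not tested for single probes.

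All 6 times of the probe called exon in NOG2 lay above 0 on these arrays, at 0.05, 0.17, 0.28, 0.31, 0.59 and 0.90, while the probe called intron averaged -0.36. Its index was the lowest of 229, at -0.74 ± 0.05 (SE; limma adjusted p = 4.18e-09), or 0.74 with the probes exchanged. TEF4 (-0.42 ± 0.05) and EFB1 (-0.40 ± 0.05) were lower too. RPS22B ranked 3 from the highest (0.58 ± 0.05), followed among the hosts by RPL7B (0.28 ± 0.05), RPL7A (0.26 ± 0.06) and ASC1 (0.16 ± 0.05), and IMD4 did not pass (0.01 ± 0.05). With junction and exon probes exchanged neither EFB1 (-0.05 ± 0.05, adjusted p = 0.498) nor RPL7B (-0.09 ± 0.05, adjusted p = 0.17) passed. The host count of 7, 4 higher and 3 lower, stands against 98 of 229 indices (42.8%). ASC1 turned to -0.02 with Cy5 alone and did not pass without 15 or 20 min (adjusted p = 0.165 and 0.0999), and without a slope neither ASC1 (0.125) nor RPL7B (0.0987) passed. Of the 24 host probes 15 passed, 4 higher and 11 lower, against 50.3% of all probes, and the junction minus exon index passed in 7 hosts, where 75 of 229 (32.8%) did.

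Each host was paired with the gene whose index ran most like its own among the 221 other genes, by the lower of the Pearson correlations over 18 pairs of the 3-AT courses and over the 18 other pairs. The pairs within a course share RNA and slides, and the values are descriptions. The 18 other pairs include the 6 of prp8-1, which set the probe kinds and in which 190 of 229 indices were higher by the size rule. A high correlation over these pairs is thus partly built in, and it was not computed without prp8-1. ASC1 was most like RPL24A (0.820 in the 3-AT courses and 0.969 in the others), RPL7A most like RPS24A (0.859 and 0.868) and RPS22B most like RPL18B (0.879 and 0.796). TEF4 ran with PMI40, the gene of phosphomannose isomerase (0.863 and 0.781). EFB1 ran with RPL26A (0.768 and 0.780), IMD4 with RPL16A (0.757 and 0.766) and RPL7B with RPL13A (0.735 and 0.606). Of the 8 nearest genes 6 encode ribosomal proteins, as do 92 of the 221 genes searched. NOG2 had the weakest likeness, to the mRNA export gene MTR2 (0.497 and 0.776). Like NOG2, MTR2 did not follow its class in prp8-1 (index -0.20).

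Genes of snoRNA processing were read by their exon or only probe, 11 of 14 listed having a named probe. In 3-AT 9 rose and 1 fell in the gcn2 deletion, and 10 rose and 1 fell in wild type, with medians of 0.38 and 0.445. Over all 1536 probes 433 rose and 432 fell in the gcn2 deletion (56.3% passed), and 485 rose and 484 fell in wild type (63.1%). RRP4, an exosome subunit, averaged 1.16 in the gcn2 deletion and 1.03 in wild type. RNT1, the endonuclease that cuts many snoRNA precursors, averaged 0.68 and 0.66, and DBR1, the debranching enzyme, 0.10 and 0.11. XRN1 was the 1 that fell, by 0.14 in the gcn2 deletion and by 0.18 in wild type. In ethanol 2 rose and 6 fell, where 659 of 1536 probes rose and 594 fell (81.6% passed), with the exosome helicase MTR4 at -0.67 and RRP6 at -0.39.

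Of 16 listed protein genes of snoRNA particles and their assembly, 10 had a named probe. In 3-AT 6 rose in the gcn2 deletion with none lower, and 6 rose and 2 fell in wild type. In ethanol 3 rose and 7 fell, against the same shares of all probes. Among these were NOP1, the methyltransferase of box C/D particles (-1.97), its partners NOP58 (-1.86) and NOP56 (-0.92), and CBF5, the pseudouridine synthase of box H/ACA particles (-1.62), while SNU13 (0.74), NOP10 (0.74) and NHP2 (0.51) were higher. In the rrp6 deletion 1 of the 10, SNU13 (-0.66), was past the size rule, where 32 of 229 exon probes (14.0%) were, so the count lies near the background. Of 8 listed paralogs and partners of the hosts, 2 had a named probe: IMD3 fell in ethanol (-1.60), as the exon of IMD4 did, and RPS22A averaged 0.115 there beside 0.41 for the exon of RPS22B. How far probes of paralogs also bind each other's RNA was not tested.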

How the data were processed

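Total RNA was extracted with acid phenol and copied into cDNA with aminoallyl-dUTP, per the labels' protocols. The authors deposited log ratios, 1 per spot and array, in 2 tables of 6144 and 9216 spots, and these were taken as log2 values. The labels and file headers do not name the log base, background correction, normalization or spot filter. Genes came from the platform annotation, updated to RefSeq R64 symbols.

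Spots of a probe (4 or 6) were averaged, then the 2 dye-swapped arrays of a pair. Both arrays of each pair already ran the same way, so no sign was turned. Courses were fitted with limma 3.58.1 in R 4.3.3, within a table, over all 229 indices or all 1536 probes, with an intercept and a slope over centred time, and the intercept was tested with Benjamini-Hochberg adjustment. The difference between strains used the 12 pairs of 2 courses. Single pairs were read by a size of 0.5 with 1 sign. The fit was also run on simulated data with independent noise, which cannot test the effect of shared RNA, single cultures or dyes on the p-values. Alternatives covered the slope, a replicate block, each time point, each dye, medians over spots, centring, spot spread and a size of 0.3. Exchanged junction and exon probes in EFB1 and RPL7B were added after seeing the data.

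The members and gene lists were chosen with earlier results of these data known. All hosts are named, and the nearest gene by correlation.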

Additional observations from a re-analysis of the deposited data

Results flagged for a closer look

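Within the courses, 200 groups of 6 time points of a host probe or index were checked for a time point standing apart by Dixon's ratio (above 0.625), which chance passes in about 1 group in 20, and 13 did. A time series can also reach its highest or lowest value at an end. In prp8-1 over wild type these were the ASC1 junction probe at 20 min (0.36), the EFB1 junction probe at 6 min (-0.26) and the TEF4 junction minus exon index at 20 min (-0.71). In ethanol they were the IMD4 index at 10 min (1.58, the nearest other being 1.87), the IMD4 junction minus exon index at 20 min (-0.70) and the NOG2 junction probe at 10 min (-0.13). In wild type in 3-AT the IMD4 junction minus exon index stood apart at 2 min (0.075). On the arrays of the gcn2 deletion over wild type in 3-AT they were the EFB1 intron probe at 4 min (-0.022), the RPL7A junction probe at 6 min (-0.33), the IMD4 exon probe at 20 min (0.26), the IMD4 index at 15 min (0.26), and at 2 min the TEF4 exon probe (-0.17) and the TEF4 index (-0.14).

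The response of the index to 3-AT differed between the gcn2 deletion and wild type, by limma's test of the difference, in TEF4 (-0.31) and EFB1 (-0.22). Neither passed under several alternatives.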

How the results depend on the processing

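The limits are the single culture of each course, the single pair of each deletion strain, probe kinds read from the slide, and an unknown signal over background. The number of hosts whose index differed between strains in 3-AT was 2, and it was 0 without the slope, with a replicate block by time point and with either dye alone, and 0 to 3 without single time points. Requiring a size of 0.3 left 3 of 7 host indices in the gcn2 deletion, 4 of 7 on the gcn2 deletion over wild type arrays, 0 of 1 junction minus exon indices in the gcn2 deletion, 0 of 6 in wild type, 2 of 7 in the gcn2 deletion over wild type and 4 of 7 in ethanol, and left 6 of 14 host probes in the gcn2 deletion, 7 of 18 in wild type and 8 of 15 in the gcn2 deletion over wild type. Without the slope 9 probes passed in the gcn2 deletion. With Cy5 arrays alone the junction minus exon counts were 2 in the gcn2 deletion, 2 in wild type, 3 in the gcn2 deletion over wild type and 4 in ethanol, and with Cy3 alone 7 in the gcn2 deletion. The junction minus exon count of the gcn2 deletion was also 3 with medians over spots, 3 without probes of high spot spread and 1 to 2 without single time points. That of wild type was 3 to 5 without single time points. In rtt103, 2 indices passed the size with Cy5 alone and 1 with Cy3, and in ski2 4 with Cy3.

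Single indices that turned were ASC1 on the gcn2 deletion over wild type arrays (-0.021, Cy5 alone) and, in ethanol with Cy3 alone, EFB1 (-0.034) and RPL7B (-0.28). Exchanging the probes of NOG2 turned its index to 1.38 in the gcn2 deletion and 1.11 in wild type in 3-AT, 0.74 between them, -2.54 in ethanol, 2.12 in prp8-1, -1.57 in rrp6, -0.52 in upf1 and 1.62 in xrn1, by construction. Exchanging junction and exon probes, chosen after seeing the data, turned EFB1 to -0.16 in wild type in 3-AT and -0.50 in ethanol, and RPL7B to -0.088 on the gcn2 deletion over wild type arrays, -0.22 in ethanol and -0.25 in rai1. For the rest the cause was not tested. Of the host indices under all alternatives, 91 kept their side and direction in the gcn2 deletion in 3-AT, 99 in wild type, 95 on the gcn2 deletion over wild type arrays and 98 in ethanol, and 12, 1, 7 and 1 lost their call.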
